A study of Mus musculus with 18 samples.

Results

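The genes described here are 4 S100 genes (S100a4, S100a6, S100a10 and S100a11), 2 galectins (Lgals1 and Lgals3), the annexin Anxa2, the actin-capping gene Capg, the intermediate filament gene Vim and the giant scaffold gene Ahnak. They were taken as a fixed list of 10 symbols from the 23420 genes of the counts table, chosen with earlier results of these data known. All 10 were in the table and all 10 passed the filter on low counts, which kept 10630 genes. RNA was sequenced from sorted mouse regulatory T cells (Treg), the Foxp3-expressing T cells that restrain immune responses. The labels give 3 genotypes, FCre x C1+/+, FCre x C1fl/+ and FCre x C1fl/fl, so FCre is shared by every group, and they are written +/+, fl/+ and fl/fl below. The series title places the study around the CBM signalosome, which links antigen receptors to NF-kB. Each genotype was sampled as resting and as effector Treg in batches 1, 2 and 3, which gives 18 libraries in 6 groups of 3. The labels do not spell out FCre, and they give neither the sex, age or number of mice nor the sorting gates. They do not say that the 3 samples of a group came from separate animals, so the p-values measure the spread between these samples.

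S100 proteins are small calcium-binding proteins that act by docking onto partner proteins. S100A10 is unusual among them in not needing calcium, and it forms a complex with annexin A2 at the plasma membrane, to which AHNAK, a very large scaffold protein, can bind. Galectins bind beta-galactoside sugars on glycoproteins, inside or outside the cell. Capg caps the fast-growing ends of actin filaments and vimentin forms intermediate filaments. In T cells, several of these genes are known as part of the shared expression programme of activated, memory and tissue-seeking cells.

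Library totals ran from 1658073 to 5756903 expected counts. The Treg markers were present throughout, with Foxp3 at 211 to 479 CPM (counts scaled to library size) and Il2ra at 244 to 374 CPM. Of the 9 myeloid markers in the table, S100a8 was at 0 in all 18 libraries, S100a9 in 17 and Cd14 in 16. Csf1r was at 0 in 12, Fcer1g in 9, Tyrobp in 8, Lyz2 in 6 and Cd68 in 2, and Itgam was found in every library. The highest single values were 7.39 CPM for Lyz2, 4.24 CPM for Fcer1g, 3.63 CPM for Itgam and 3.58 CPM for Tyrobp. The summed 9 markers stood at 2.75 to 11.9 CPM in resting and 1.16 to 11.6 CPM in effector libraries. The 5 CD8 or NK markers summed to 25.3 to 49.8 CPM in resting and 40.9 to 105 CPM in effector libraries. Ncr1 was at 0 in 14 libraries. The genes of this list did not move together between states. In +/+ cells the log2 change from resting to effector was 2.30 for Nkg7 (edgeR adjusted p = 0.000722) and -0.70 for Cd8b1 (adjusted p = 0.0155). In fl/fl cells it was 2.15 for Nkg7 (edgeR adjusted p = 0.00309) and -0.48 for Cd8b1 (adjusted p = 0.148). Klrb1c went the way of Nkg7 but was not called, at 3.43 in +/+ (edgeR adjusted p = 0.157) and 2.76 in fl/+ cells (adjusted p = 0.169). Its mean was 2.01 CPM in fl/fl resting and 8.29 CPM in fl/fl effector cells. Its highest library was at 21.8 CPM, against a median of 1.21 CPM over the 18. Both fl/fl replicate 1 libraries stood apart in that list. The resting one was at 49.8 CPM against 25.3 and 31.6 in the other fl/fl resting libraries, and the effector one was at 105 CPM against 40.9 and 43.5. The same 2 libraries had the highest myeloid sums of their groups, 11.9 and 11.6 CPM. The 5 B cell markers summed to 74.6 CPM in +/+ resting replicate 3, against 9.39 and 17.4 CPM in replicates 1 and 2. That library was the lowest of its group for 8 of the 10 genes. In fl/+ resting replicate 3 the B cell sum was 54.5 CPM, against 11 and 13.8 CPM in replicates 1 and 2. Whether these markers had a part in the levels of the 10 genes was not tested. Bulk RNA cannot tell fewer expressing cells from less RNA per cell.

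All 4 S100 members lie on chromosome 3, on the plus strand, in the RefSeq annotation of GRCm38.p6. S100a4 (chr3:90603770-90606045) ends 6.85 kb before S100a6 (chr3:90612894-90614414). S100a11 (chr3:93520496-93526288) ends 28.8 kb before S100a10 (chr3:93555117-93564645), and 2.91 Mb separate the pairs. RefSeq lists 15 S100 genes on this chromosome, of which 14 were in the counts table. Of the 10 that are not among the genes described here, 7 had a count in at most 9 of the 18 libraries. S100a5, which lies between S100a4 and S100a6, had 3 counts over all 18 libraries, whereas S100a4 had 889. Of the genes before S100a4 on the chromosome, S100a3 had 26 counts and S100a13 had 2614. The other 6 genes are spread over chromosome 15 (Lgals1), chromosome 14 (Lgals3), chromosome 9 (Anxa2), chromosome 6 (Capg), chromosome 2 (Vim) and chromosome 19 (Ahnak).

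The 250 bases before the start of 4 of the genes are shown because S100a4 and S100a6 were each other's nearest gene in pattern, and because S100a11 and Anxa2 were the members with a match to the AP-1 motif, the site of the Fos and Jun factors. RefSeq promoters (GRCm38.p6) were at hand for 8 of the 10 genes. All run 5′ to 3′ on the plus strand. Capitals mark AP-1 (TGANTCA) in S100a11 and Anxa2 and RUNX (TGTGGT, either strand) in S100a6. S100a4 has neither and so has no capitals.
S100a4, chr3:90603520-90603769: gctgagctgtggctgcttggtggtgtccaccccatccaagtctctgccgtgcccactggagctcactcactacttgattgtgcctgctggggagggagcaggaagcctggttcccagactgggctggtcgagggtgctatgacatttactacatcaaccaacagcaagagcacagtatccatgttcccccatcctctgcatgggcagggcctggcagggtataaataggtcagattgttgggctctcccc
S100a6, chr3:90612644-90612893: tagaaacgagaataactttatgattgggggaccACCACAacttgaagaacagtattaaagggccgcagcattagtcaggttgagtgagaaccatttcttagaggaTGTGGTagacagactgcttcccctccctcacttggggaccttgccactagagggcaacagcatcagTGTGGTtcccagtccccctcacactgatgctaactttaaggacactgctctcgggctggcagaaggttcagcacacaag
S100a11, chr3:93520246-93520495: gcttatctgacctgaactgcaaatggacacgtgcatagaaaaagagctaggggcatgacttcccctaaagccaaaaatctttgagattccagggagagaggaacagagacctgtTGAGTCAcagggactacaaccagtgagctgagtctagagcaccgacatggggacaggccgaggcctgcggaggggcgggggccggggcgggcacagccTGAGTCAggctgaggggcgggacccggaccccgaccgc
Anxa2, chr9:69453433-69453682: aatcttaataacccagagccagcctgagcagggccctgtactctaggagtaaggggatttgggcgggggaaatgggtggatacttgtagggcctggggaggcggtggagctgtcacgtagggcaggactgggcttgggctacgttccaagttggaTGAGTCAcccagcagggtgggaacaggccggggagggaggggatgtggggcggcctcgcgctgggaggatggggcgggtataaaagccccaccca
AP-1 letters were in 2 of the 8 promoters and in 6.7% of the 32851 promoters of the table, scanned over the same 250 bases on both strands. In S100a11 they lie 136 to 130 and 38 to 32 bases before the start, and in Anxa2 95 to 89 bases before it. RUNX letters were in 1 of 8 (14% of all), with 3 matches in S100a6. The TATA box (TATAAA) was in 3 of 8 (12.4% of all), in Anxa2, S100a4 and Vim. The KLF motif (CCACCC) was in 5 of 8 (28.1% of all) and the GC box (GGGCGG) in 4 of 8 (32.7% of all). The NF-kB consensus was in Vim alone (3.9% of all) and the CArG box in none (1.5% of all). A match describes letters only, and binding was not measured.

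Compared per length in the deposited FPKM (fragments scaled to transcript length and library size), the 10 genes covered a wide range. S100a10 had the highest mean in every group, from 293 FPKM in fl/+ resting cells to 528 ± 33.0 FPKM (SD, n = 3) in +/+ effector cells. In +/+ resting cells the order was S100a10 (294 FPKM), Vim (249), Capg (145), Lgals1 (85.6), S100a11 (37.7), Anxa2 (14), Ahnak (7.34), S100a6 (3.37), S100a4 (1.7) and Lgals3 (0.197). The libraries of S100a10 and Vim overlapped there, as did each neighbour from Anxa2 to Lgals3. In +/+ effector cells S100a4 (91.1 FPKM) and S100a6 (82.0 FPKM) had passed Anxa2 (62.6 FPKM) and Ahnak (34.1 FPKM), although the libraries of S100a4, S100a6 and Anxa2 overlapped from 1 neighbour to the next. S100a11 reached 256 FPKM there and overlapped Lgals1 at 245 FPKM. Lgals3 remained the lowest of the 10 in all 6 groups.

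**Figure D1:**
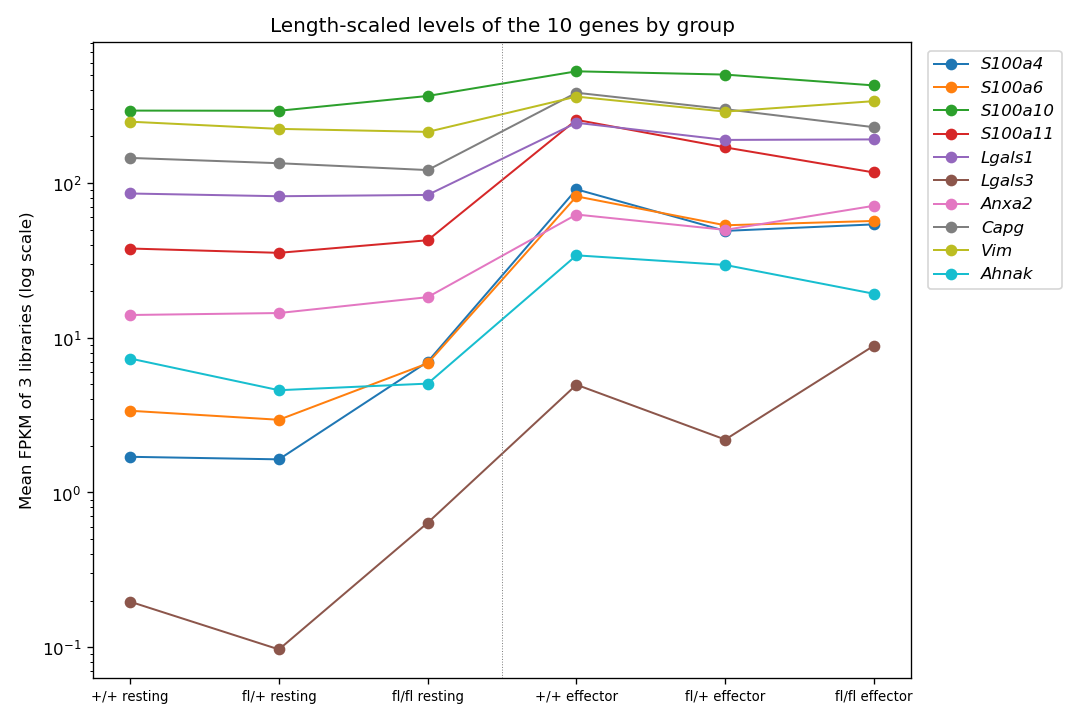
Mean FPKM of 3 libraries (log axis) for the 10 genes in the 6 groups, resting on the left of the dotted line and effector on the right. S100a10 is the highest line throughout and Lgals3 the lowest. S100a4 and S100a6 lie below Ahnak in +/+ and fl/+ resting cells and above it in fl/fl resting cells and in every effector group. In fl/fl resting cells only replicate 1 had S100a4 and S100a6 above Ahnak.

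The first question was how the genes differ between resting and effector Treg. The 10 genes were chosen with earlier results of these data known. The shares of all tested genes given below are therefore a background and no test of the list. In +/+ cells 9 of the 10 were higher in effector cells (edgeR quasi-likelihood test, Benjamini-Hochberg adjusted p under 0.05), against 9.49% of all tested genes called higher. The median log2 change was 2.16, against -0.01 over all tested genes. In fl/+ cells 9 were higher (9.72% of all tested genes), with a median of 1.94, and in fl/fl cells 9 were higher (5.01% of all tested genes), with a median of 1.65. The gene not called was Vim in +/+ and fl/+ cells and S100a10 in fl/fl cells. Summed over the 10 genes, resting libraries held 713 to 1192 CPM. Effector libraries held 2329 to 2368 CPM in +/+, 1844 to 1931 CPM in fl/+ and 1537 to 1873 CPM in fl/fl cells. The effector libraries lay wholly above the resting libraries for 10 genes in +/+ (16.6% of all tested genes), 9 in fl/+ (18% of all) and 8 in fl/fl (11.7% of all).

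**Figure D2:**
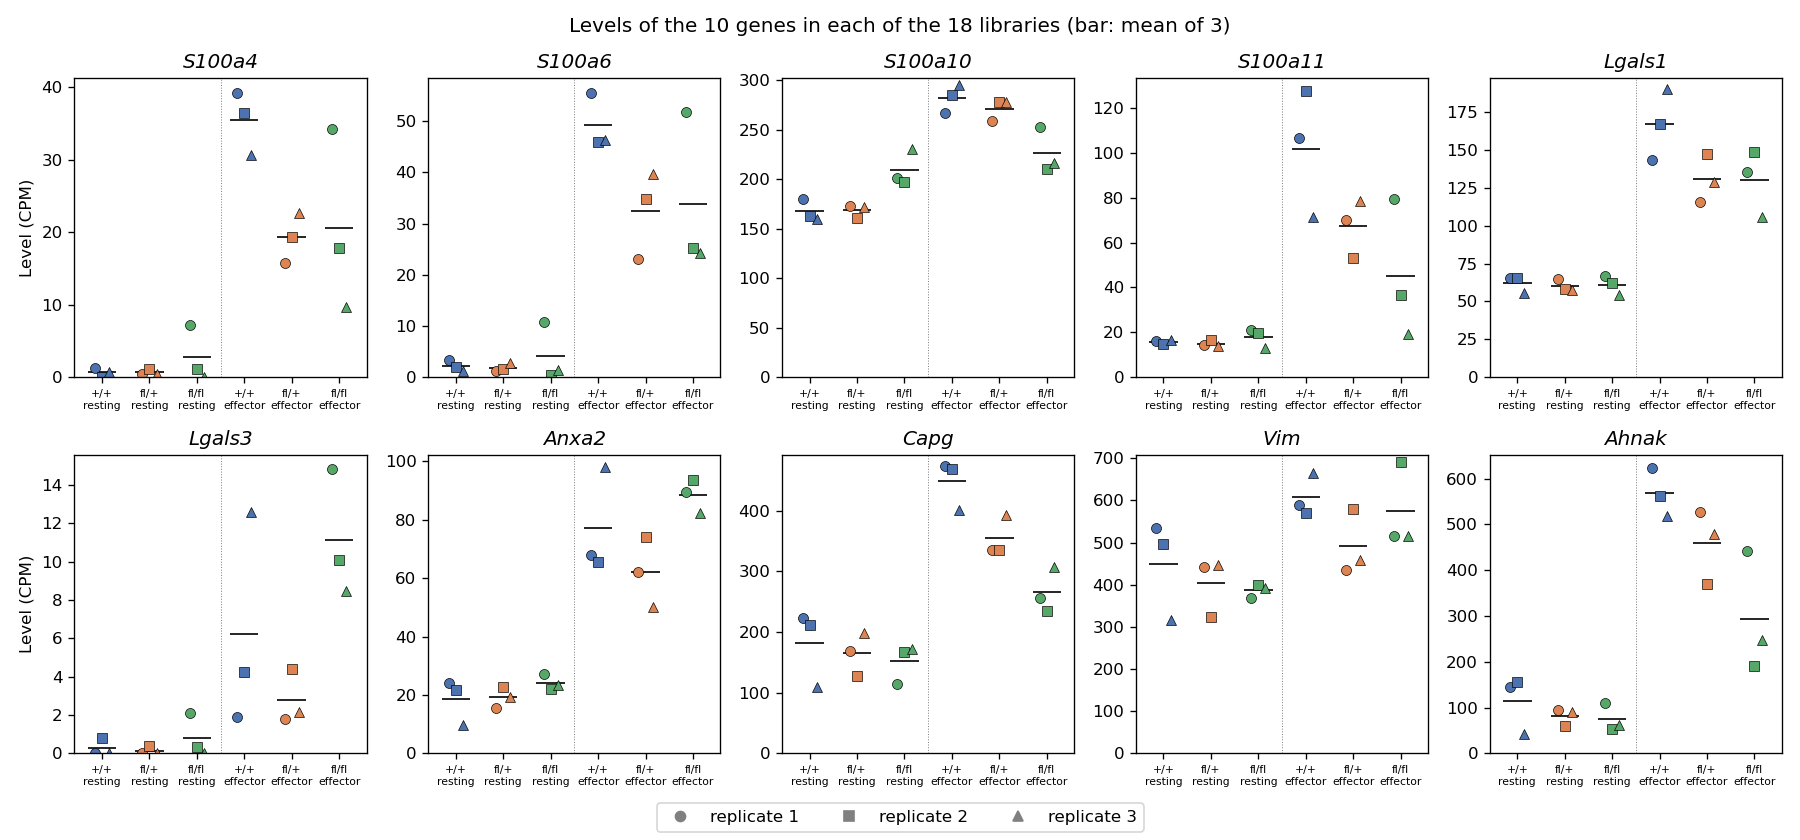
CPM of each gene in each library (points, with the shape giving the replicate number and a bar at the mean of 3), by group along the horizontal axis, each panel starting at 0. Resting libraries sit low for S100a4, S100a6 and Lgals3, and fl/fl replicate 1 (green circle) is the highest fl/fl point for these 3 genes in both states.

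S100a4, a calcium-dependent partner of non-muscle myosin, had the largest log2 change of the 10 in +/+ and fl/+ cells. Library values are given in the order of replicates 1, 2 and 3. In +/+ cells S100a4 was at 1.27, 0 and 0.790 CPM in resting and 39.3, 36.5 and 30.7 CPM in effector libraries. In fl/+ cells it was at 0.431, 1.18 and 0.470 CPM against 15.7, 19.4 and 22.7 CPM. In fl/fl cells it was at 7.16, 1.08 and 0 CPM against 34.3, 17.8 and 9.67 CPM. The states did not overlap in any genotype, and the fl/fl groups were the most spread, with replicate 1 the highest in each. By the fit, the log2 change was 5.46 (SE 0.73, adjusted p = 4.1e-05) in +/+, 4.81 (SE 0.77, adjusted p = 0.00024) in fl/+ and 2.94 (SE 0.59, adjusted p = 0.00491) in fl/fl cells by edgeR. The +/+ resting level rests on 7 counts in all against 338 in effector cells, a ratio of 46.3 with a 95% interval of 22.2 to 116 that covers counting error only. Without fl/fl resting replicate 1 the fl/fl change was 5.38 (edgeR adjusted p = 0.000179), and without fl/fl effector replicate 1 it was 2.33 (adjusted p = 0.0548). These are the libraries with the high CD8 or NK and myeloid sums. The part of those markers in the S100a4 level was not tested.

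S100a6, the neighbour of S100a4, was also higher in effector cells of each genotype. It was at 3.30, 2.03 and 1.18 CPM in +/+ resting and 55.6, 46.0 and 46.2 CPM in +/+ effector libraries. The fl/+ libraries went from 1.29, 1.57 and 2.82 CPM to 23.0, 34.7 and 39.7 CPM. The fl/fl libraries went from 10.7, 0.361 and 1.48 CPM to 51.8, 25.2 and 24.2 CPM. No resting library reached an effector one within a genotype, and fl/fl replicate 1 was again the highest of its group in both states. Effector less resting, the log2 change was 4.40 (SE 0.56) in +/+, 4.18 (SE 0.60) in fl/+ and 3.00 (SE 0.51) in fl/fl cells, with edgeR adjusted p of 2.9e-05, 8.7e-05 and 0.00141. Without fl/fl resting replicate 1 the fl/fl value was 5.13 (edgeR adjusted p = 1.47e-05).

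S100a11, which binds annexins at membranes, was at 16.2, 14.6 and 16.6 CPM in +/+ resting and 107, 127 and 71.3 CPM in +/+ effector libraries. Values in fl/+ cells rose from 14.4, 16.5 and 14.1 CPM to 70.2, 53.1 and 78.4 CPM. In fl/fl cells resting libraries held 20.9, 19.8 and 13 CPM and effector libraries 79.2, 36.6 and 19.3 CPM. The fl/fl states overlapped, because effector replicate 3 fell below resting replicates 1 and 2. On the log2 scale the change was 2.68 (SE 0.34, edgeR adjusted p = 2.83e-05) in +/+, 2.165 (SE 0.34, adjusted p = 0.000199) in fl/+ and 1.43 (SE 0.34, adjusted p = 0.0136) in fl/fl cells. The fl/fl call depended on single libraries. It was 0.71 (edgeR adjusted p = 0.24) without fl/fl effector replicate 1 and 1.24 (adjusted p = 0.0844) without fl/fl resting replicate 3.

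S100a10, the partner of annexin A2, changed little in size but was measured closely, with an SD of 3.97 to 10.2% of the mean within groups. In +/+ cells it was at 180, 163 and 160 CPM in resting and 267, 285 and 295 CPM in effector libraries. The fl/+ libraries held 173, 161 and 172 CPM against 259, 278 and 277 CPM. The fl/fl libraries held 201, 197 and 230 CPM against 253, 210 and 216 CPM. The states were apart in +/+ and fl/+ cells, and they overlapped in fl/fl cells, where the resting level was the highest of the resting groups and the effector level the lowest of the effector groups. The log2 change was 0.75 (SE 0.09, edgeR adjusted p = 2.41e-05) in +/+ and 0.69 (SE 0.09, adjusted p = 5.44e-05) in fl/+ cells. In fl/fl cells it was 0.12 (SE 0.09, edgeR adjusted p = 0.551), with a 95% interval of -0.09 to 0.32. None of 28 alternative fits called the fl/fl change.

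Lgals1, galectin-1, was at 65.7, 65.6 and 55.3 CPM in +/+ resting and 143, 167 and 190 CPM in +/+ effector libraries. The fl/+ libraries held 64.6, 58.2 and 57.3 CPM against 116, 148 and 129 CPM, and the fl/fl libraries 66.5, 62.1 and 54.0 CPM against 136, 148 and 106 CPM. All 9 resting libraries lay below all 9 effector libraries. By the fit, the log2 change was 1.42 (SE 0.14, edgeR adjusted p = 5.67e-06) in +/+, 1.11 (SE 0.14, adjusted p = 3.17e-05) in fl/+ and 1.10 (SE 0.14, adjusted p = 0.0001) in fl/fl cells. Lgals1 was called in all 3 genotypes under each of the 28 alternatives, as were S100a6, Anxa2 and Ahnak.

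Lgals3, galectin-3, was close to the limit of detection in resting cells. It had 2, 1 and 8 counts in all in the +/+, fl/+ and fl/fl resting groups, and 51, 37 and 121 counts in the matching effector groups. The ratios, scaled to library size, were 24.4 (95% counting interval 6.43 to 207) in +/+, 24.5 (4.14 to 995) in fl/+ and 14.6 (7.2 to 34.7) in fl/fl cells. Effector libraries held 1.90, 4.23 and 12.6 CPM in +/+, 1.82, 4.40 and 2.18 CPM in fl/+ and 14.8, 10.1 and 8.46 CPM in fl/fl cells. The +/+ effector libraries were the least alike, and fl/fl effector libraries lay above all fl/+ ones. By edgeR the adjusted p was 0.00607 in +/+, 0.0286 in fl/+ and 0.00798 in fl/fl cells. The calls rested on few reads. The +/+ call was lost without +/+ effector replicate 3 (edgeR adjusted p = 0.0502), and the fl/fl call without fl/fl resting replicate 3 (adjusted p = 0.0517). The fl/+ call was lost without fl/+ resting replicate 1 (adjusted p = 0.153), effector replicate 2 (adjusted p = 0.0755) or resting replicate 3 (adjusted p = 0.0722). The fitted +/+ log2 change moved from 4.52 to 7.40 without +/+ resting replicate 2, and the fl/fl one from 3.71 to 5.84 without fl/fl resting replicate 1.

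Anxa2, the calcium-dependent membrane binder of the S100a10 complex, rose in each genotype. It was at 24.1, 21.9 and 9.87 CPM in +/+ resting and 68.0, 65.5 and 97.9 CPM in +/+ effector libraries. In fl/+ cells it was at 15.5, 22.8 and 19.3 CPM against 62.2, 74.1 and 50.1 CPM, and in fl/fl cells at 27.1, 22 and 23.3 CPM against 89.6, 93.6 and 82.2 CPM. Every effector library lay above every resting library, and +/+ replicate 3 was the lowest resting and the highest effector library. Effector less resting, the log2 change was 2.02 (SE 0.23) in +/+, 1.72 (SE 0.23) in fl/+ and 1.87 (SE 0.23) in fl/fl cells, with edgeR adjusted p of 1.43e-05, 5.71e-05 and 7.38e-05.

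Ahnak was at 145, 156 and 42.2 CPM in +/+ resting and 624, 561 and 519 CPM in +/+ effector libraries. The fl/+ values were 94.8, 60.2 and 90.2 CPM against 527, 370 and 480 CPM. The fl/fl values were 110, 52.7 and 61.1 CPM against 443, 190 and 248 CPM. The states did not overlap in any genotype, and +/+ resting replicate 3 was the lowest of the 18 libraries. On the log2 scale the change was 2.30 (SE 0.36) in +/+, 2.48 (SE 0.36) in fl/+ and 1.98 (SE 0.36) in fl/fl cells, with edgeR adjusted p of 0.000166, 0.000102 and 0.00248.

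Capg was at 223, 212 and 110 CPM in +/+ resting and 474, 469 and 401 CPM in +/+ effector libraries. In fl/+ cells it was at 168, 128 and 199 CPM against 335, 335 and 393 CPM, and in fl/fl cells at 115, 167 and 172 CPM against 255, 235 and 308 CPM. Resting and effector libraries were apart in each genotype, and the effector level was lowest in fl/fl cells. The log2 change was 1.3 (SE 0.21, edgeR adjusted p = 0.000203) in +/+, 1.10 (SE 0.21, adjusted p = 0.000877) in fl/+ and 0.81 (SE 0.21, adjusted p = 0.0229) in fl/fl cells. The fl/fl call was lost on leaving out fl/fl resting replicate 1 (0.65, edgeR adjusted p = 0.0951), effector replicate 1 (0.84, adjusted p = 0.062), resting replicate 2 (0.89, adjusted p = 0.0508) or effector replicate 3 (0.71, adjusted p = 0.0935).

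Vim had the highest mean CPM of the 10 in each group. It was at 534, 496 and 317 CPM in +/+ resting and 589, 570 and 664 CPM in +/+ effector libraries. The fl/+ libraries held 442, 324 and 446 CPM against 434, 580 and 459 CPM, and the fl/fl libraries 368, 399 and 392 CPM against 516, 690 and 516 CPM. Its states overlapped in fl/+ cells and were apart in +/+ and fl/fl cells. By the fit, the log2 change was 0.44 (SE 0.17, edgeR adjusted p = 0.0826) in +/+, 0.28 (SE 0.17, adjusted p = 0.281) in fl/+ and 0.57 (SE 0.17, adjusted p = 0.0446) in fl/fl cells. In +/+ cells DESeq2 called it (adjusted p = 0.0403), as did edgeR without +/+ resting replicate 1 (0.58, adjusted p = 0.0412), with a range of 0.00122 to 0.599 over the 28 alternatives. The lowest of these came without a filter on low counts. The fl/fl call was lost on leaving out any 1 of 10 libraries (edgeR adjusted p = 0.0516 to 0.181), which were all 6 fl/fl libraries, +/+ effector replicates 1 and 2, fl/+ resting replicate 1 and fl/+ effector replicate 3.

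Within each batch number the direction held for most genes. Of the 9 pairs of resting and effector libraries that share a genotype and a number, effector was higher in all 9 for 8 genes and in 8 for the others, S100a10 and Vim. The exceptions were S100a10 in fl/fl pair 3 (-0.09 on the log2 scale) and Vim in fl/+ pair 1 (-0.02).

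**Figure D3:**
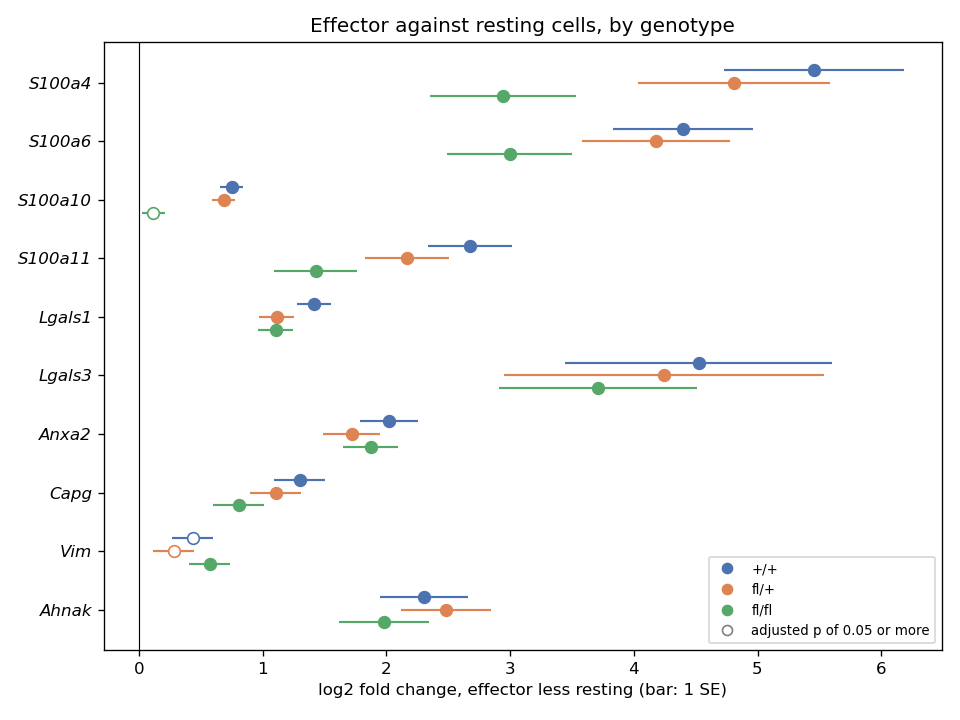
Log2 fold change between effector and resting cells for each gene (points) with 1 SE (bars), in +/+, fl/+ and fl/fl cells, where open points had an adjusted p of 0.05 or more. S100a10 in fl/fl cells and Vim in +/+ and fl/+ cells are the open points. The fl/fl value is the lowest of the 3 genotypes for 8 of the 10 genes, by little for Lgals1 (1.10 against 1.11 in fl/+). The share of all tested genes with that order was not counted. Without fl/fl resting replicate 1 the fl/fl value was 5.38 for S100a4, 5.13 for S100a6 and 5.84 for Lgals3. The last 2 then lay above their +/+ values in the figure, 4.40 and 4.52.

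The second question was how the genes differ between genotypes in the same state. In resting cells none of the 10 was called between fl/fl and +/+ (edgeR; 0.696% of all tested genes called), between fl/+ and +/+ (0.0847% of all) or between fl/fl and fl/+ (0.0282% of all). DESeq2 and limma on log2 FPKM also called none. The share of all tested genes with an unadjusted p under 0.05 was not counted in any comparison. Among the 10 genes the counts at that threshold were 1, 0 and 1, in both cases S100a10. It was 0.32 higher on the log2 scale in fl/fl than in +/+ cells (SE 0.09, edgeR adjusted p = 0.168), with libraries that did not overlap (11.6% of all tested genes did not), and 0.31 higher than in fl/+ cells (SE 0.09, adjusted p = 0.769). S100a4 was 1.82 higher in fl/fl than in +/+ resting cells by the fit (SE 0.99, edgeR adjusted p = 0.711), with 27 counts against 7, and fl/fl replicate 1 alone was above the +/+ libraries. The fl/fl and fl/+ comparisons against +/+ share the +/+ libraries.

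In effector cells 1 of the 10 genes was called lower in fl/fl than in +/+ (edgeR; 1.65% of all tested genes called lower). The gene was Capg, at 266 ± 37.4 CPM against 448 ± 40.7 CPM (SD, n = 3 each), a log2 difference of -0.76 (SE 0.20, edgeR adjusted p = 0.0485) with no overlap (20.5% of all tested genes did not overlap in either direction). Within batch numbers 1, 2 and 3 the difference was -0.89, -0.995 and -0.38. The call was close to the threshold and was lost on leaving out any 1 of 11 libraries (edgeR adjusted p = 0.0523 to 0.237). They were +/+ effector replicates 1 and 2, +/+ resting replicate 2, fl/+ resting replicate 1, fl/fl resting replicate 2 and all fl/+ and fl/fl effector libraries.

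Counting Capg, 8 genes had a negative difference in fl/fl effector cells, with a median of -0.42 over the 10 against 0.007 over all tested genes. An unadjusted p under 0.05 was found for 5, and the share of all tested genes under it was not counted. S100a11 stood at 45 ± 30.8 CPM against 102 ± 28.3 CPM (-1.08, SE 0.30, edgeR adjusted p = 0.0564), and fl/fl replicate 1 overlapped the +/+ libraries. Ahnak stood at 294 ± 132 CPM against 568 ± 52.5 CPM (-0.94, SE 0.34, edgeR adjusted p = 0.14) without overlap. S100a10 stood at 226 ± 23.0 CPM against 282 ± 14.2 CPM (-0.31, SE 0.09, edgeR adjusted p = 0.0683), also without overlap. Lgals1 stood at 130 ± 21.8 CPM against 167 ± 23.7 CPM (-0.35, SE 0.13, edgeR adjusted p = 0.172). Anxa2 and Lgals3 were the genes with a positive difference. Anxa2 was at 88.5 ± 5.78 CPM in fl/fl and 77.2 ± 18 CPM in +/+ effector cells (0.20, SE 0.21, edgeR adjusted p = 0.704), with a 95% interval of -0.25 to 0.65. Lgals3 differed by 0.91 (SE 0.62, edgeR adjusted p = 0.509). S100a4 (-0.70, adjusted p = 0.48), S100a6 (-0.50, adjusted p = 0.586) and Vim (-0.08, adjusted p = 0.869) were not called by edgeR.

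With batch number as a block, edgeR called 4 of the 10 genes lower in fl/fl effector cells, against 2.9% of all tested genes called lower in that fit. They were Capg, S100a11 (-1.13, adjusted p = 0.0199), Ahnak (-1.01, adjusted p = 0.0354) and S100a10 (-0.31, adjusted p = 0.0491). Within batch numbers S100a11 differed by -0.43, -1.78 and -1.85, Ahnak by -0.49, -1.56 and -1.07, and S100a10 by -0.08, -0.44 and -0.45. In each case batch 1 had the smallest difference. Its fl/fl effector library is the one with the high CD8 or NK sum. Without it S100a11 (-1.80, edgeR adjusted p = 0.000878), Ahnak (-1.38, adjusted p = 0.0262) and S100a10 (-0.40, adjusted p = 0.021) were called and Capg was not (-0.73, adjusted p = 0.0734). Over all tested genes the calls in either direction went from 299 to 648 without that library. Without +/+ effector replicate 3, S100a11 was also called (-1.27, edgeR adjusted p = 0.022). Over the 28 alternatives the adjusted p ran from 8.32e-09 to 0.261 for S100a11, 1.33e-13 to 0.465 for Ahnak, 0.02 to 0.309 for S100a10 and 1.18e-08 to 0.237 for Capg, and the sign of each stayed negative. The lowest values of S100a11 and Ahnak came from the fit without a filter on low counts, which called 830 of all genes against 299. The Treg markers Ctla4 (163 against 407 CPM, edgeR adjusted p = 0.00425) and Ikzf2 (274 against 516 CPM, adjusted p = 0.0078) were also lower in fl/fl than in +/+ effector cells, and Foxp3 stood at 287 against 325 CPM. Whether the makeup of the sorted cells had a part in the members' values was not tested.

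**Figure D4:**
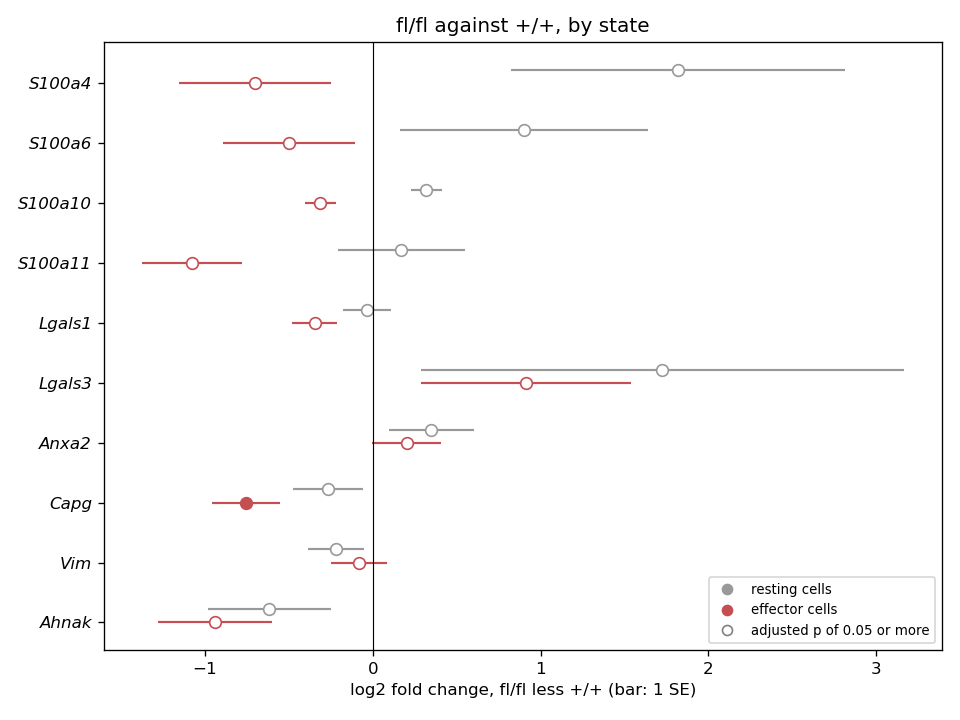
Log2 difference between fl/fl and +/+ (points) with 1 SE (bars) for each gene in resting and in effector cells, where open points had an adjusted p of 0.05 or more. Capg in effector cells is the only filled point, and S100a10 lies at 0.32 in resting and -0.31 in effector cells.

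No gene of the 10 was called between fl/+ and +/+ effector cells (edgeR; 0.00941% of all tested genes called). DESeq2 and limma also called none, and Lgals1 alone had an unadjusted p under 0.05 (-0.35, SE 0.13, adjusted p = 0.702). All 10 differences were negative, from -0.06 for S100a10 to -1.14 for Lgals3, with a median of -0.34 against -0.002 over all tested genes. S100a4, S100a6 and Capg did not overlap between the groups (11.6% of all tested genes did not). Between fl/fl and fl/+ effector cells none was called (edgeR; 0.677% of all tested genes called), none by DESeq2 or limma, and 3 had an unadjusted p under 0.05. These were Lgals3 at 11.1 ± 3.32 CPM against 2.80 ± 1.40 CPM (2.05, SE 0.65, edgeR adjusted p = 0.162), Anxa2 (0.52, SE 0.20, adjusted p = 0.291) and S100a10 (-0.26, SE 0.09, adjusted p = 0.218). Libraries of Lgals3, Anxa2, S100a10 and Capg did not overlap between these groups (16.3% of all tested genes did not). Without fl/fl effector replicate 1, S100a11 was called lower (-1.21, edgeR adjusted p = 0.0165), with 310 of all genes called against 72.

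Whether the change between states itself differed from that in +/+ was tested as an interaction. None of the 10 passed for fl/fl (edgeR; 0% of all tested genes called) or for fl/+ (0.0188% of all). At an unadjusted p under 0.05 there were 3 for fl/fl and 0 for fl/+. The 3 were S100a10 (-0.63, SE 0.13, edgeR adjusted p = 0.193), S100a11 (-1.25, SE 0.48, adjusted p = 0.463) and S100a4 (-2.52, SE 1.09, adjusted p = 0.506). DESeq2 called S100a10 (adjusted p = 0.00981) and limma none. Without fl/fl effector replicate 1 edgeR called S100a10 (-0.72) and S100a11 (-1.96), each at an adjusted p of 0.0314, among 33 of all genes called. Over the 28 alternatives the adjusted p of S100a10 ran from 0.00981 to 0.565, that of S100a11 from 0.000595 to 0.725 and that of S100a4 from 0.00676 to 0.999. The lowest values of S100a11 and S100a4 came without a filter on low counts, where 246 of all genes were called. Leaving out 1 library moved the S100a4 value between -3.40 and -0.07. Its fl/fl change between states was 5.38 without fl/fl resting replicate 1, against 5.46 in +/+ cells in the main fit.

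Relatives of the 10 genes were counted by list. Of all tested genes, 9.49% were called higher in effector cells in +/+ and 5.01% in fl/fl cells. In +/+ cells the annexins other than Anxa2 had 4 of 6 tested genes higher. Anxa1, a regulator of inflammation that is named although its mean was under 5 CPM, rose from 0.263 to 4.89 CPM (4.21, edgeR adjusted p = 0.00984), and Anxa4 from 4.66 to 19.0 CPM (2.03, adjusted p = 0.00107). Anxa5 and Anxa7 rose by 0.36 and 0.40. In fl/fl cells 1 of the 6, Anxa5, was called (0.55, edgeR adjusted p = 0.00898). Of 13 other S100 genes, S100a13 alone was high enough to test, and its log2 change was 0.12 in +/+, 0.00 in fl/+ and -0.07 in fl/fl cells, not called in any. Of 4 other galectin-family genes tested, Lgalsl rose in +/+ cells (2.35, edgeR adjusted p = 0.00463). Among 13 genes for galectin ligands and the enzymes that build their sugars, 3 rose in +/+ cells. The largest change was that of Gcnt1, which starts core 2 O-glycan branches, from 0.892 to 20.2 CPM (4.61, edgeR adjusted p = 0.000101).

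The cytoskeletal lists were counted in the same way. None of 10 tested genes of the gelsolin family and capping proteins was called in +/+ cells. Of 8 genes for intermediate filaments, lamins and linkers, Lmnb1 rose (1.55) and Plec fell by 0.60 on the log2 scale, and of 6 further partners of Anxa2, S100a10 and Ahnak none was called. Of 51 genes for actin, tubulin and their regulators, 3 rose and 13 fell in +/+ cells, where 9.49% of all tested genes were called higher and 6.5% lower. Myo1f, a class I myosin, rose from 5.73 to 80.2 CPM (3.72, edgeR adjusted p = 7.8e-05). Cnn3, calponin 3, fell by 2.83, Actn1 by 1.015 and Tubb2a by 0.80 on the log2 scale. In fl/+ cells 5 rose and 13 fell (9.72% of all tested genes called higher and 6.58% lower). In fl/fl cells 3 rose and 2 fell (5.01% of all called higher and 1.33% lower).

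**Figure D5:**
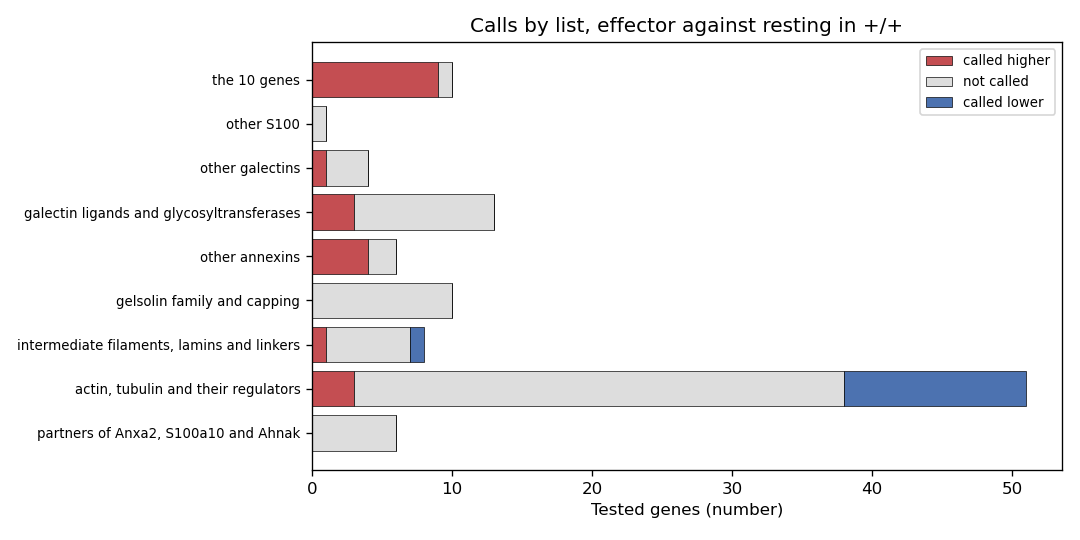
Number of tested genes called higher (red), not called (grey) and called lower (blue) between effector and resting +/+ cells in each list. The 10 genes stand at 9 higher, the other annexins at 4 of 6 and the actin and tubulin list at 3 higher and 13 lower of 51. Of all tested genes, 9.49% were called higher and 6.5% lower.

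The genes whose group pattern was most like the median of the 10 were ranked by the root mean square difference of centred log2 CPM over the 6 group means, among 9325 tested genes. The nearest were Gna15 (0.15), Egln3 (0.18), Rxra (0.18) and Kcna2 (0.20), followed by Cldn25, Runx2, Il18r1, Ckb, Id2 and Lgalsl (0.21 to 0.23). Among the 10 themselves, Lgals1 (0.27), Anxa2 (0.29) and S100a11 (0.29) lay nearest to their median and S100a4 (1.22) and S100a6 (1.09) farthest from it. S100a4 and S100a6 were each other's nearest gene (0.25). The third nearest gene to Capg was Batf, an AP-1 family factor (0.08), and the second nearest to Ahnak was Icos, a costimulatory receptor (0.12). S100a11 had Pdcd1, the PD-1 receptor, as its nearest (0.14). Lgals3 had no close match. Its 3 nearest genes were 2810417H13Rik (0.46), Nek2 (0.52) and Ccna2 (0.53), farther off than the nearest gene of any other member. Nek2 and Ccna2 are genes of the cell division cycle. The pattern of Lgals3 rests on 2, 1 and 8 counts in the resting groups, and its highest mean was in fl/fl effector cells.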

How the data were processed

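RNA was measured in 18 libraries. The deposited table of expected counts, made by the authors with STAR 2.6.0 and RSEM 1.2.8 after bcl2fastq 2.17.1.14 on mm10 per the submitters' processing notes, was rounded and tested. FPKM values as deposited by the authors served levels compared between genes and the limma alternatives. For annotation and strand setting the entry is "not given in the sources used here", so overlapping genes cannot be told apart by strand. Of nonzero expected counts, 29.4% were not whole.

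In R 4.3.3, edgeR 4.0.16 (TMM factors 0.9394 to 1.063, filterByExpr with a minimum count of 10) fitted 6 group means to 10630 genes, with Benjamini-Hochberg adjustment over all of them and a threshold of 0.05. SE is the log2 change divided by the root of F. DESeq2 1.42.0, limma 3.58.1, other scaling and filters, a batch block and leaving out libraries were alternatives. Library totals had a median of 3154386.1 counts, replicates correlated at 0.953 to 0.976 and differed by more than counting error (chi-square per gene 3.43 to 6.93), and the common dispersion was 0.0215. The fit was tested on simulated data.

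The labels call the replicate number a batch, so this number, shared by all genotypes, served as the block. No fit modelled the 9 pairs of libraries that share both number and genotype. Residuals of libraries sharing number and genotype correlated at a mean of 0.207 (9 pairs, 0.141 to 0.345), and those sharing only the number at 0.0666 (36 pairs).

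The 10 members and the lists were chosen with earlier results of these data known. Besides the members, genes were named where called in a list (at most 4, with a mean of at least 5 CPM) or nearest in pattern. The named examples among nearest genes of single members were chosen after their values were seen. The gene targeted by the floxed allele is not reported here.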

Additional observations from a re-analysis of the deposited data

How the results depend on the processing

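The sign of each member's change between states, and of each fl/fl difference from +/+ in effector cells, was the same in all 28 alternatives, of which 18 left out 1 library (27 for Lgals3 between states in +/+ and in fl/+ cells). Counts of members called within 1.5 times of the main count are not listed. Between fl/fl and +/+ effector cells (main count 1) DESeq2 called 2, no filter on low counts 3, the replicate block 4 and log2(FPKM + 0.1) 0. Over all tested genes the count there was 299, against 552 with the block, 455 by DESeq2, 830 without a filter and 31 to 648 without 1 library. Log2(FPKM + 1) called 1, which was S100a11 and not Capg. Without 1 library the count ran from 0 to 3. Without a filter the count was 1 for fl/fl against +/+ in resting cells, 1 for fl/+ against +/+ in resting and 1 in effector cells, 4 for fl/fl against fl/+ effector cells and 3 for the fl/fl interaction, where the main fit called 0. In the same order the genes called over the whole table were 315, 219, 176, 488 and 246, against 74, 9, 1, 72 and 0. DESeq2 called 1 in that interaction, of 15 over all genes. Leaving out 1 library gave 0 to 1 for fl/fl against fl/+ effector cells, 0 to 2 for the fl/fl interaction and 5 to 9 for the fl/fl states. The low value of 5 came without fl/fl effector replicate 1, where 266 of all genes were called between the fl/fl states, against 674 in the main fit. In the alternatives chosen after seeing the data, leaving out both fl/fl replicate 1 libraries gave 5 members for fl/fl against +/+ effector cells, with S100a4 (-1.32, edgeR adjusted p = 0.0332) and S100a6 (-1.01, edgeR adjusted p = 0.0305) now called, 6 for the fl/fl states and 1 for fl/fl against fl/+ effector cells. Over all genes that setting called 711 for fl/fl against +/+ and 349 for fl/fl against fl/+ effector cells. Leaving out both +/+ replicate 3 libraries gave 3 for fl/fl against +/+ effector cells, where 578 of all genes were called. Fitting only the 2 groups compared lost S100a4 (adjusted p = 0.0582) and S100a11 (adjusted p = 0.084) in the fl/fl states. The block changed no other call of the 10 genes. The cause of these differences was not tested. Of the 10 genes most like the members, 4 remained with a minimum of 1 CPM in place of 5. Depth limits Lgals3 most, with 2, 1 and 8 counts in the resting groups.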

Other observations

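A few structural genes outside the 10 differed between genotypes. In effector cells Cnn3, calponin 3, stood at 40.8 CPM in fl/fl against 7.85 CPM in +/+ (2.45 on the log2 scale, SE 0.37, edgeR adjusted p = 0.0021) and against 14 CPM in fl/+ (1.54, SE 0.31, adjusted p = 0.0356). The microtubule regulator Stmn1 (1.19, edgeR adjusted p = 0.0289) and the tubulin gene Tuba1b (0.43, adjusted p = 0.0385) were also higher in fl/fl than in +/+ effector cells. These 3 were the calls among 51 actin and tubulin genes there, where 1.17% of all tested genes were called higher and 1.65% lower. Lmnb1, which encodes lamin B1, was higher in fl/fl than in +/+ cells in effector (1.27, edgeR adjusted p = 0.0399) and resting cells (1.80, adjusted p = 0.0304). Sun2, a nuclear envelope linker, was higher in resting fl/fl cells, at 552 against 246 CPM (1.18, edgeR adjusted p = 0.0336). In resting cells Lmnb1 and Sun2 were the 2 calls among 8 genes for intermediate filaments, lamins and linkers. Of all tested genes, 0.546% were called higher there.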
